A study of Mus musculus with 6 samples.

Results

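BH3-only genes and the effectors Bax and Bak1, the genes that start and carry out mitochondrial apoptosis, were followed in mouse eosinophils treated with extracellular vesicles (EVs) of TH2 cells. The members were chosen by name: Bcl2l11, Bbc3, Pmaip1, Bad, Bid, Bik, Bmf and Hrk among the BH3-only genes, with both effectors, 10 genes in all. Of these, 9 were matched by symbol among the 16254 genes of the count table, and they comprised 7 BH3-only genes and 2 effectors. Hrk was not matched there, so its expression was not analysed here and only its sequence is used. Eosinophils were grown from bone marrow of C57BL/6 mice aged 6 to 12 weeks, first in FLT3 ligand and stem cell factor and then, from day 4, in IL-5. On day 12 the cultures received either 5e9 EVs per ml from activated TH2 cells or sham, which is medium that no cell had conditioned, taken through the same isolation. Both groups therefore shared strain, culture and IL-5 priming, and their treatment differed in the EV preparation. The paper reports better eosinophil survival and less apoptosis with activated TH2 cell EVs than without treatment. The share of dying cells at RNA collection may thus also have differed between the groups, and its part in the results was not tested. RNA was collected after 24 h from 3 sham-treated and 3 EV-treated cultures, which the labels call biological replicates. These are eosinophils made in culture, without the tissue signals that eosinophils receive in a lung.

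BCL2 family proteins decide whether the outer mitochondrial membrane stays intact. Pro-survival members such as BCL2, BCL-XL and MCL1 hold the effectors BAX and BAK in check, BH3-only proteins occupy the pro-survival members or engage the effectors directly, and active BAX and BAK open the membrane and let cytochrome c reach the caspases. Eosinophils are short-lived cells whose survival depends on cytokines of the IL-5 family, and BIM, the product of Bcl2l11, is a BH3-only protein known for its part in the death of blood cells deprived of cytokine.

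What the BH3-only genes share with each other and with the effectors is one short stretch, the BH3 helix, which fits into the groove of a pro-survival partner. The coding stretches below, of 42 bases or 14 codons each, are shown because they are the feature that defines these genes. They were read from GENCODE vM21 transcripts (GRCm38.p6) by a search of each reading frame for a leucine codon followed, 4 codons on, by a codon for glycine, alanine or serine, then an aspartate codon and a codon for an acidic or amide residue. Each of the 9 reading frames searched, of 92 to 271 codons, held 1 match. Capitals mark the leucine codon, the codon for the small residue and the aspartate codon.
Bcl2l11: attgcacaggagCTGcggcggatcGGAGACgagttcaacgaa
Bbc3: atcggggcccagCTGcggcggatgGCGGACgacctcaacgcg
Bad: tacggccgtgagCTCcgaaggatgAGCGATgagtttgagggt
Bid: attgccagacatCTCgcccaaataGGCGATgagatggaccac
Bik: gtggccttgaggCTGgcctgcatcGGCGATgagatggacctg
Bmf: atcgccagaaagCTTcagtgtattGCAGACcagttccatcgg
Hrk: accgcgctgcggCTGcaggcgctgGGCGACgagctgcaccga
Bax: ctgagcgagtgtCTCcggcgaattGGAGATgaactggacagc
Bak1: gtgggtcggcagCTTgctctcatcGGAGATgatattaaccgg
Over the 36 pairs of these stretches, between 42.9% and 66.7% of bases were identical, with a median of 50%, and 8 of the 42 positions held the same base in all 9. Some of these positions are fixed by the search itself, such as the letters GA of the aspartate codon. The closest pair was Bcl2l11 and Bbc3, at 66.7%. The small residue was glycine in 6 genes (GGA in Bcl2l11, Bax and Bak1, GGC in Bid, Bik and Hrk), alanine in Bbc3 and Bmf, and serine in Bad. The leucine began at codon 150 in Bcl2l11, 90 in Bid, 63 in Bax and 76 in Bak1. Pmaip1 is named without sequence.

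Estimated counts per library summed to between 23697620 and 32808674 in the sham group and between 32260914 and 37874426 in the EV group. Counts were rounded, scaled with the TMM method of edgeR and given as normalized counts, which are comparable between libraries. Differences were tested with edgeR's quasi-likelihood test over the 13498 genes with enough reads, with Benjamini-Hochberg adjustment, and called at an adjusted p under 0.01. At that threshold 1632 genes were higher and 1572 lower with EVs, so that 50.9% of the calls were higher. Without TMM scaling the calls were 1036 higher and 2342 lower, a share of 30.7%, and the median log2 fold change of all genes shifted by -0.15. Chi-square between replicate libraries was 8.73 to 33.2 per gene, so no library was a copy of another. Bulk RNA gives the mean over a culture, in which fewer cells of a type and less RNA per cell cannot be told apart.

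Of the 8 members with enough reads for the test, Bcl2l11 fell, Bid, Pmaip1 and Bak1 rose, and Bax, Bbc3, Bad and Bmf did not pass the threshold. The 3 that rose stand beside 12.1% of all genes tested that were higher, and the 1 that fell beside 11.6% that were lower. The groups did not overlap for 4 of the 8 members, or 50%, beside 49.6% of all genes. The median log2 fold change of the 8 was -0.05, beside -0.01 over all genes tested, so that the members did not move one way as a set. These are 8 genes named for their biology, and the counts describe them only.

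**Figure D1:**
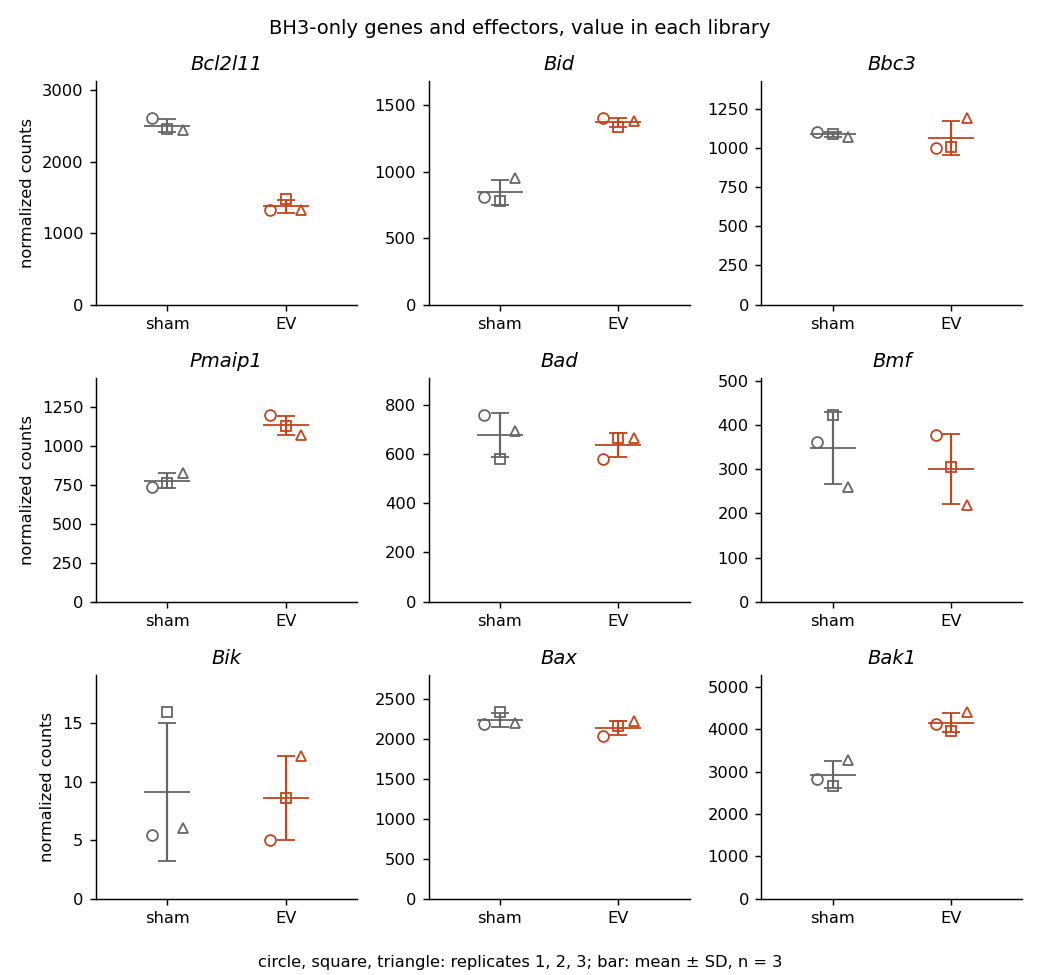
Normalized counts of the 9 members in each library, sham in grey and EV in red, on axes that start at 0. Circles, squares and triangles are replicates 1, 2 and 3, and bars give the mean and SD of 3 libraries. Bcl2l11 is lower in every EV library, Bid, Pmaip1 and Bak1 are higher in every EV library, and the groups overlap for the other 5.

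Bcl2l11 encodes BIM, a BH3-only protein that binds every main pro-survival partner and can also activate the effectors. Its normalized counts were 2606, 2458 and 2446 in sham replicates 1 to 3 and 1322, 1476 and 1326 in EV replicates 1 to 3. All sham libraries lay far above all EV libraries, and the spread within each group was small beside the gap. The sham mean was 2503 ± 88.9 and the EV mean 1374 ± 88.0 (SD, n = 3 each). The log2 fold change was -0.87 (SE 0.07, 95% confidence interval -1.03 to -0.70, adjusted p = 1.07e-05 by edgeR), which leaves 0.549 of the sham level. Of all genes tested, 13.6% had a lower log2 fold change, and 20.3% had a larger one in either direction. The change was therefore sizeable but not extreme among the responses of these cultures. Bcl2l11 lies at chr2:128126038-128162547 on the plus strand and shares no exon base with another annotated gene, and 0.408% of the 31-base words of its transcripts occur in another gene.

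Bid encodes a BH3-only protein that caspase 8 cleaves to its active form, which links death receptors to mitochondria. It had 807 normalized counts in sham replicate 1, 777 in sham replicate 2 and 950 in sham replicate 3, and 1401, 1335 and 1380 in the EV libraries. Every EV library stood above the highest sham library, which was replicate 3. The log2 fold change was 0.70 (SE 0.09, 95% confidence interval 0.49 to 0.91, adjusted p = 0.00025 by edgeR), a level 1.62 times that of sham. Bid (chr6:120893119-120917062, minus strand) shares 628 exon bases, 17.7% of its exons, with Bcl2l13 on the other strand. Bcl2l13, a BCL2-like protein of the mitochondrial membrane, itself rose by 0.41 on the log2 scale (adjusted p = 0.00529 by edgeR), a call lost without sham replicate 2 (0.34, adjusted p = 0.0148), without sham replicate 3 (0.39, 0.0214) or without EV replicate 1, 2 or 3 (0.42, 0.42 and 0.41, 0.0186 to 0.0267). The strand of the reads is not given in the sources used here, and in the shared stretch reads of Bid and Bcl2l13 then cannot be told apart. Bcl2l13 had means of 1264 normalized counts in sham and 1681 in EV libraries, above the means of Bid, 845 and 1372. How much of the rise of Bid this touches was not tested. The same limit holds for the exon bases that Bad shares with Gpr137 and Bak1 with Ggnbp1, also on opposite strands.

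Pmaip1 encodes NOXA, a p53 target whose product binds chiefly MCL1 and favours its degradation. Its normalized counts were 734, 761 and 827 in sham and 1195, 1125 and 1071 in EV libraries. The lowest EV library was well above the highest sham library. The log2 fold change was 0.55 (SE 0.09, 95% confidence interval 0.35 to 0.75, adjusted p = 0.000941 by edgeR), or 1.46 times the sham level. With 0.399% of its 31-base words found elsewhere, its counts share little sequence with other genes.

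The remaining BH3-only genes gave no call. Bbc3 encodes PUMA, a p53 target that, like BIM, binds all main pro-survival proteins. It had 1102, 1088 and 1070.5 normalized counts in sham and 999, 1007 and 1190 in EV libraries, so that EV replicate 3 lay above all sham libraries and the other two below them. Its log2 fold change was -0.03 (95% confidence interval -0.23 to 0.18, adjusted p = 0.838 by edgeR). A fall of the size estimated for Bcl2l11 lies outside this interval. The sign was not fixed, since the log2 fold change was 0.02 without EV replicate 1 and 0.02 without EV replicate 2.

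Bad encodes the BH3-only protein that survival kinases phosphorylate and 14-3-3 proteins hold in the cytosol. Its normalized counts were 758, 582 and 695 in sham and 580, 664 and 664 in EV libraries, with the groups interleaved. The log2 fold change was -0.09 (95% confidence interval -0.37 to 0.18, adjusted p = 0.604 by edgeR), and it was 0.0014 without sham replicate 1. Bad shares 524 exon bases, 20.5% of its exons, with Gpr137 on the other strand, whose log2 fold change was 0.24 (adjusted p = 0.171 by edgeR).

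Bmf, whose product is tethered to the actin cytoskeleton until it is released, was lower and varied more. It had 363, 423 and 260.0 normalized counts in sham and 378, 305 and 218 in EV libraries. Within each group the highest library was over 1.5 times the lowest, and the groups overlapped. The log2 fold change was -0.22 (95% confidence interval -0.74 to 0.31, adjusted p = 0.517 by edgeR), an interval wide enough to hold a moderate change either way.

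Bik, whose product sits at the endoplasmic reticulum, was near the limit of detection. Its rounded counts were 6, 13 and 5 in sham and 5, 10 and 14 in EV libraries, and it did not pass the filter on low counts. In the fit without a filter its log2 fold change was -0.06 (95% confidence interval -2.32 to 2.20, adjusted p = 0.973 by edgeR), so a change of several fold in either direction was not detectable at this depth.

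The effectors differed from each other. Bak1 encodes BAK, which sits in the outer mitochondrial membrane of healthy cells and is restrained there mainly by MCL1 and BCL-XL. It had 2836, 2664 and 3278 normalized counts in sham and 4121, 3957 and 4399 in EV libraries, each EV library above each sham library. The log2 fold change was 0.51 (SE 0.08, 95% confidence interval 0.32 to 0.70, adjusted p = 0.00106 by edgeR), or 1.42 times the sham level. Bak1 lies at chr17:27019812-27028627 on the minus strand, and 20.4% of its 31-base words occur elsewhere, chiefly in Ggnbp1 on the other strand. Ggnbp1 had a mean of 400.2 normalized counts in sham and 360.1 in EV libraries (log2 fold change -0.15, adjusted p = 0.58 by edgeR), so the neighbour gave no call and had a far lower count than Bak1.

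Bax encodes BAX, which moves from the cytosol to mitochondria when activated. It had 2182, 2331 and 2193 normalized counts in sham and 2038, 2156 and 2218 in EV libraries, with overlap between the groups. Its log2 fold change was -0.06 (SE 0.07, 95% confidence interval -0.21 to 0.08, adjusted p = 0.495 by edgeR), and a rise of the size estimated for Bak1 lies outside this interval. Bax (chr7:45461695-45466903, minus strand) shares 192 exon bases with Gm45808 on the same strand, a gene with at most 17.2 normalized counts in any library.

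**Figure D2:**
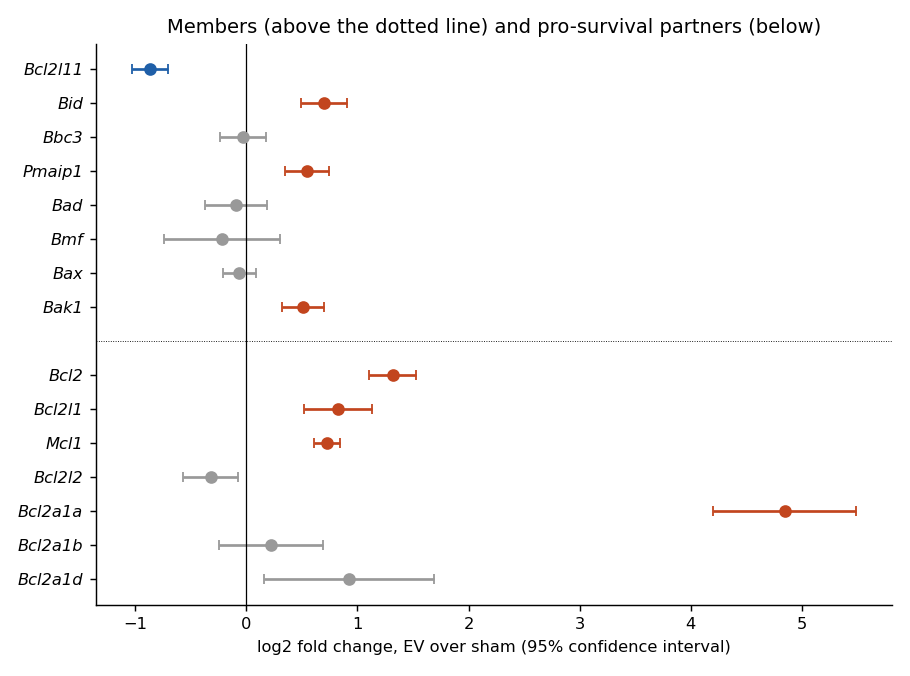
Log2 fold change of EV over sham with its 95% confidence interval for the 8 members tested, above the dotted line, and 7 pro-survival partners, below it. Red marks genes called higher, blue lower and grey not called at an adjusted p under 0.01. Among the members only Bcl2l11 lies to the left with a call, at -0.87, while Bcl2, Bcl2l1 and Mcl1 lie to the right, at 1.32, 0.83 and 0.73.

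Levels were compared between genes as normalized counts per kilobase of merged exons. In sham-treated eosinophils the order was Bax, Bak1, Bbc3, Bcl2l11, Pmaip1, Bad, Bid, Bmf and Bik, from 1418 ± 52.6 per kb for Bax to 5.74 ± 3.70 per kb for Bik (SD, n = 3). The effectors were thus the most abundant members per kb, with Bax at 1385 to 1479 per kb and Bak1 at 1107 to 1362 per kb. This order rests on the exon lengths used, 8029 bases for Bcl2l11 and 1576 for Bax. Not divided by length, Bcl2l11 was above Bax in every sham library, at 2446 to 2606 beside 2182 to 2331 normalized counts. Pmaip1 overlapped Bad and Bad overlapped Bid in their values over libraries, while all other neighbours in the order were separate. Bcl2l11 was the fourth, at 312 ± 11.1 per kb, a little above Pmaip1 at 283 ± 17.5 per kb.

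In EV-treated eosinophils the order was Bak1, Bax, Bbc3, Pmaip1, Bid, Bad, Bcl2l11, Bmf and Bik, and Pmaip1 and Bid alone overlapped as neighbours. Bak1 stood first at 1728 ± 92.9 per kb and Bax second at 1356 ± 57.9 per kb, the reverse of sham. Bcl2l11, at 171 ± 11 per kb, had passed from above Pmaip1, Bad and Bid to below all 3. This crossing rests on the exon lengths used, 8029 bases for Bcl2l11 and 2558 to 3550 for the other 3. Not divided by length, Bcl2l11 stayed above Pmaip1 and Bad in every EV library. It overlapped Bid there, at 1322 to 1476 beside 1335 to 1401 normalized counts. Bid reached 386 ± 9.38 per kb and Pmaip1 414 ± 22.8 per kb. Among the 15522 genes with a known exon length, Bcl2l11 moved from percentile 74.5 to percentile 62.6 of level, and Bid from 68.8 to 78.1.

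**Figure D3:**
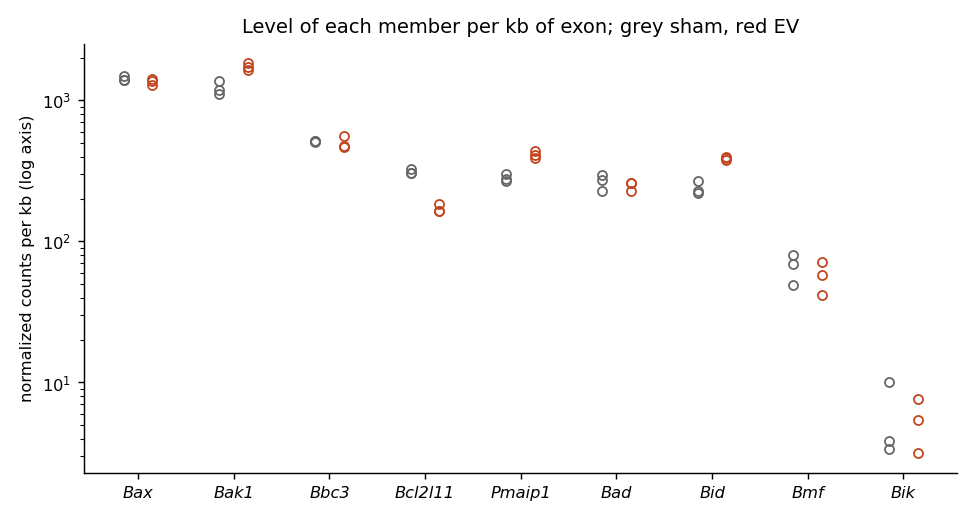
Normalized counts per kilobase of exon for the 9 members in each of 3 sham (grey) and 3 EV (red) libraries, on a log axis and ordered by the sham mean. Bax and Bak1 lie above 1000 per kb in both groups, Bcl2l11 drops from about the level of Pmaip1 to 171 per kb, and Bik stays at or below 10 per kb.

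The pro-survival partners are what BH3-only proteins act on. Of the 7 measured, 4 rose, beside 12.1% of all genes tested that were higher, and the other 3 did not pass the threshold. The median log2 fold change of the 7 was 0.83, beside -0.01 over all genes tested. Bcl2 had 700.1, 816 and 779 normalized counts in sham and 2094, 1859 and 1764 in EV libraries, without overlap (log2 fold change 1.32, adjusted p = 3.95e-06 by edgeR). Bcl2l1, which encodes BCL-XL, had 960, 1324 and 1513 in sham and 2244, 2288 and 2186 in EV libraries (0.83, adjusted p = 0.00103 by edgeR). Sham replicate 1 was the lowest for both genes, and for Bcl2l1 it was well below the other sham libraries. Mcl1, the most abundant of the partners, rose by 0.73 on the log2 scale (adjusted p = 3.58e-06 by edgeR).

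Bcl2l2, which encodes BCL-W, was at -0.32 on the same scale (adjusted p = 0.0479 by edgeR). The A1 genes are near copies of each other, and 79.6% to 89.1% of their 31-base words occur in another gene, so the split of counts between them is uncertain. As deposited, Bcl2a1a had 24.3 to 66.2 normalized counts in sham and 1016 to 1170 in EV libraries (log2 fold change 4.84, adjusted p = 1.21e-06 by edgeR), Bcl2a1b was at 0.22 (adjusted p = 0.455, and -0.03 without sham replicate 1) and Bcl2a1d at 0.92 (adjusted p = 0.0602).

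Ratios of a member to a partner were taken within each library, per kilobase, since such a ratio does not depend on scaling between libraries. The pairs were chosen with earlier results of these data known. Bcl2l11 was called lower and Bcl2, Bcl2l1 and Mcl1 higher above, so that their ratios restate these calls and add no separate support. The ratio of Bcl2l11 to Bcl2 was 4.24, 3.44 and 3.58 in sham and 0.72, 0.905 and 0.857 in EV libraries. Bcl2l11 mRNA thus exceeded Bcl2 mRNA in every sham culture and was below it in every EV culture. The difference was -2.18 on the log2 scale (SE 0.14), and the EV ratio was 0.220 of that in sham. The ratio of Bcl2l11 to Bcl2l1 was 1.55, 1.06 and 0.924 in sham and 0.336, 0.369 and 0.346 in EV libraries (log2 difference -1.71, SE 0.23). Bcl2l11 to Mcl1 was 0.0543, 0.0532 and 0.0528 in sham and 0.0177, 0.0184 and 0.0171 in EV libraries (log2 difference -1.59, SE 0.03), the most even of the ratios within groups.

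Pmaip1 and its main partner Mcl1 behaved differently from this. Their ratio was 0.0450, 0.0484 and 0.0525 in sham and 0.0471, 0.0413 and 0.0405 in EV libraries, with overlap and a log2 difference of -0.18 (SE 0.09), so the rise of Pmaip1 was accompanied by one of similar size in Mcl1. Bax to Bcl2 was 18.1, 16.6 and 16.4 in sham and 5.66, 6.74 and 7.30 in EV libraries (log2 difference -1.38, SE 0.12). Bak1 to Bax was 0.851, 0.748 and 0.979 in sham and 1.32, 1.2 and 1.3 in EV libraries (log2 difference 0.58, SE 0.12). Per kilobase, Bak1 was therefore below Bax in every sham culture and above it in every EV culture. The order in sham rests on the exon lengths used (2407 bases for Bak1 and 1576 for Bax), since the normalized counts of Bak1, not divided by length, were above those of Bax in all 6 libraries. The two-sided exact permutation test gave p = 0.1 for 5 of the 6 ratios, the smallest value that 3 against 3 libraries allow, and p = 0.2 for Pmaip1 to Mcl1. Adjusted over the 6 ratios these exact permutation values were 0.12 and 0.2.

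**Figure D4:**
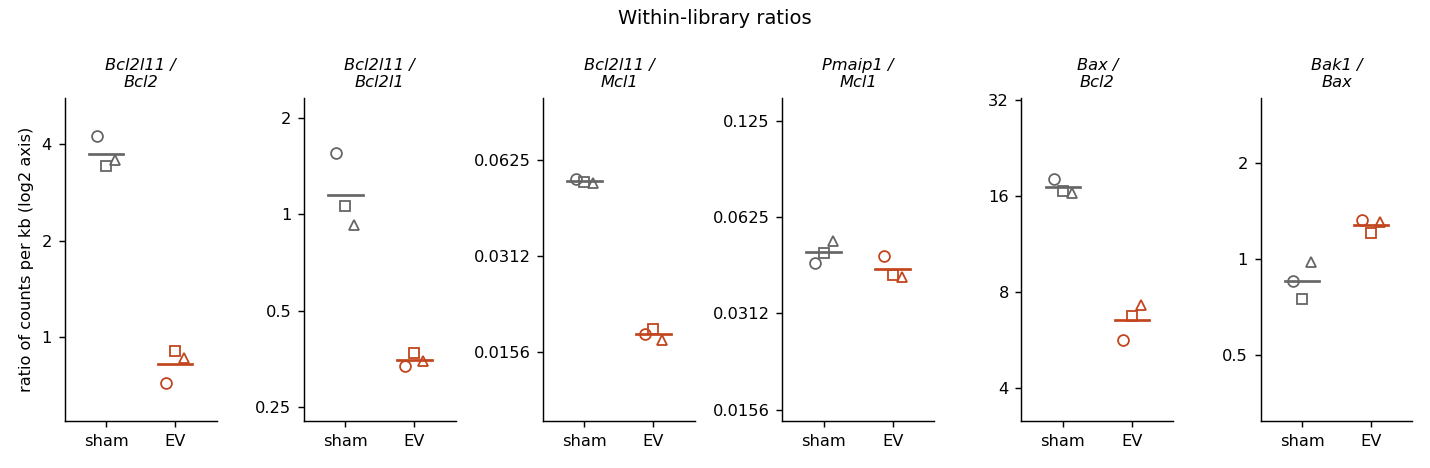
Ratio of counts per kilobase of the first to the second gene in each library, sham in grey and EV in red, on log2 axes that each span the same fold range. Circles, squares and triangles are replicates 1, 2 and 3, and lines are geometric means of 3 libraries. The ratio of Bcl2l11 to Bcl2 drops from 3.44 to 4.24 in sham to 0.72 to 0.905 with EVs, and only Pmaip1 to Mcl1 overlaps between the groups.

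FOXO factors are known activators of Bcl2l11 and Bbc3 when cytokine signals are withdrawn, and promoter letters were therefore read for the members. RefSeq promoters of GRCm38.p6, with 250 bases before and 50 after each start, were found for 8 of the 10 members as 14 windows. The FOXO-type core TGTTTAC, on either strand, was in 1 window each of Bcl2l11 and Bbc3, and in 3.65% of the 32851 promoters of the genome. In Bcl2l11 the match began 227 bases before the start and in Bbc3, at one of 3 annotated starts, 167 bases before. The stretches of 100 bases that hold it, both on the plus strand and outside annotated exons of the gene, are shown with the match in capitals, at chr2:128125788-128125887 and chr7:16310044-16310143.
Bcl2l11: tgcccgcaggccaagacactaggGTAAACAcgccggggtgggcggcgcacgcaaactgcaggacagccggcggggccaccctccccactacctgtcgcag
Bbc3: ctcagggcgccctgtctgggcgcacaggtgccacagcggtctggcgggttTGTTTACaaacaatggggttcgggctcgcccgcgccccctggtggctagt
In Bcl2l11 the capitals are the reverse complement of the core. The 2 genes with the match had log2 fold changes of -0.87 and -0.03, so that the same letters stood before a gene that fell and before one that gave no call. The STAT-type letters TTCNNNGAA, the GATA-type letters AGATAA and, each searched as 10 letters, the STAT6 motif and the interferon-regulatory-factor motif were in none of these windows, which says only that these letters were not found there. The E-box letters CACGTG were in windows of Bbc3 and Bax, and in 7.15% of all promoters.

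Of 8 transcription factors known to act on members and with enough reads, 2 rose and 2 fell, with a median log2 fold change of -0.12. Over all genes tested, 12.1% were higher and 11.6% lower, with a median of -0.01. Foxo3 had 11211, 9907 and 9728 normalized counts in sham and 12585, 12926 and 13068 in EV libraries (log2 fold change 0.32, adjusted p = 0.00324 by edgeR), a rise in mRNA that says nothing of where the protein was. Jun, an AP-1 subunit that can induce Bcl2l11, had the largest change of the list, with 2220, 2539 and 2756 in sham and 434, 467 and 580 in EV libraries (-2.34, adjusted p = 6.04e-07 by edgeR). Ddit3, the stress factor CHOP, fell by 0.52 on the log2 scale (adjusted p = 0.00327) and Atf4 rose by 0.29 (adjusted p = 0.00285). The calls of Foxo3, Ddit3 and Atf4 were lost when single libraries were left out. Foxo3 lost its call without sham replicate 2 (0.30, adjusted p = 0.0134), sham replicate 3 (0.29, 0.0164), EV replicate 2 (0.33, 0.0172) or EV replicate 3 (0.32, 0.0177). Ddit3 lost it without EV replicate 1, 2 or 3 (-0.51, -0.49 and -0.54, adjusted p of 0.0174, 0.0239 and 0.0175), and Atf4 likewise (0.28, 0.31 and 0.30, adjusted p of 0.0154, 0.0131 and 0.0134). Trp53 itself had 1316 to 1423 normalized counts in sham and 1465 to 1544 in EV libraries (0.12, adjusted p = 0.209 by edgeR), and is named here after its values were seen.

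Pmaip1, Bbc3 and Bax are textbook targets of p53, and only Pmaip1 of the 3 rose. Of 17 other p53 target genes, 9 rose, beside 12.1% of all genes tested that were higher, and the other 8 did not pass the threshold. The median log2 fold change of the 17 was 0.57, beside -0.01 over all genes tested. The 4 with the smallest adjusted p were Cdkn1a, the cell cycle inhibitor p21, at 1.5, Btg2 at 0.76, Ccng1 at 0.78 and Sesn2 at 0.91 (adjusted p between 5.5e-07 and 1.24e-05 by edgeR). Cdkn1a had 1602, 1919 and 1784 normalized counts in sham and 4997, 4809 and 5165 in EV libraries. Many of these genes also answer to other signals.

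Several proteins control BH3-only proteins after translation. Of 26 genes for proteins that bind, modify or degrade members, 7 rose and 1 fell, with a median log2 fold change of 0.04. These counts stand beside 12.1% of all genes tested that were higher and 11.6% that were lower, with a median of -0.01. PIM kinases, which phosphorylate BAD, led this list. Pim1 had 9191, 8641 and 8836 normalized counts in sham and 32550, 35609 and 33277 in EV libraries (1.93, adjusted p = 2.04e-08 by edgeR), Pim2 rose by 3.45 on that scale (adjusted p = 5.67e-07) and Pim3 by 1.97 (adjusted p = 2.56e-06). Ywhaz, a 14-3-3 protein of the kind that binds phosphorylated BAD, rose by 0.58 (adjusted p = 2.73e-05), but Ywhah, another 14-3-3 gene and the 1 gene of the list that fell, was at -0.56 (adjusted p = 0.000621 by edgeR). The 14-3-3 genes Ywhab, Ywhae, Ywhag and Ywhaq gave no call, with log2 fold changes of -0.07 to -0.01, and these 5 are named after their values were seen. Bad mRNA itself, given above, changed by less than the spread between cultures.

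Of 9 further BCL2-related genes, 1 rose, Bcl2l13, and 1 fell, Bnip3, a BH3-like gene of mitophagy (log2 fold change -0.68, adjusted p = 0.000398 by edgeR), with a median of -0.01. Of 11 genes that act after the membrane is opened, 2 rose and 1 fell, with a median of 0.14. For both lists the shares over all genes tested were 12.1% higher and 11.6% lower, with a median of -0.01. Among the 11 genes Xiap, an inhibitor of caspases, rose by 0.39 on the log2 scale (adjusted p = 0.0018 by edgeR). Htra2, a mitochondrial protease that counters XIAP, fell by 0.89 (adjusted p = 0.000872 by edgeR). The call of Xiap was lost without EV replicate 1 (0.37, adjusted p = 0.0103).

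**Figure D5:**
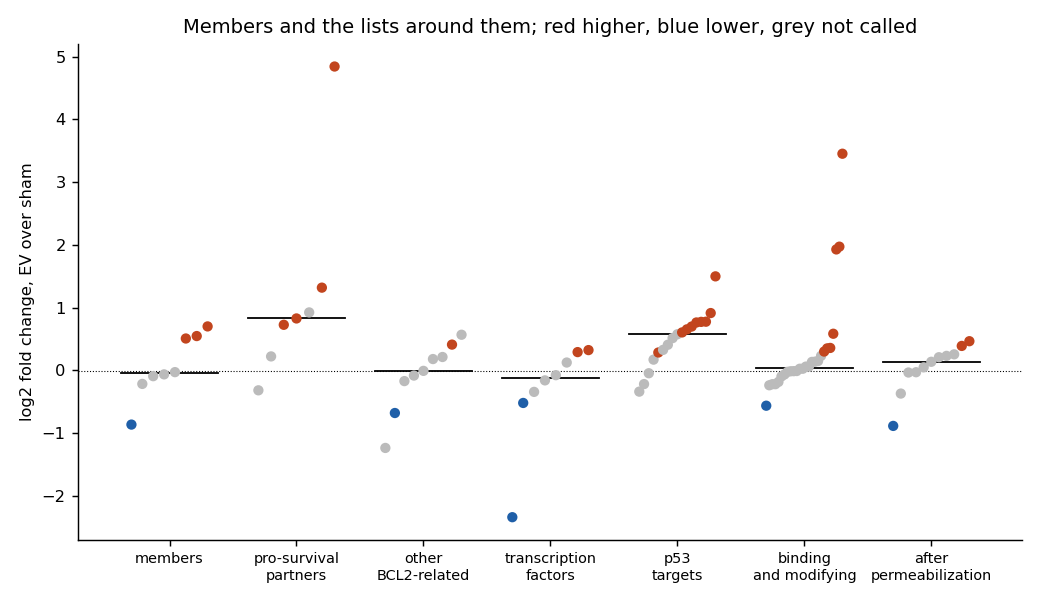
Log2 fold changes of EV over sham for the 8 members tested and the tested genes of 6 lists around them, 1 point per gene, sorted within each list. Red marks genes called higher, blue lower and grey not called, short lines are list medians and the dotted line is the median of all 13498 genes. The members spread on both sides of 0, with a median of -0.05, whereas the pro-survival partners and p53 targets have medians of 0.83 and 0.57.

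Markers of cell types moved with treatment, and their part in the results above was not tested. Among all genes tested, 12.1% were higher and 11.6% lower. Of 9 eosinophil markers 6 rose, and their summed normalized counts were 821692 to 1036700 in sham and 1119040 to 1232760 in EV libraries, so the cultures expressed the genes of their label. Of 9 macrophage markers 7 fell and 1 rose (Adgre1, which eosinophils also express), with a median log2 fold change of -2.48 and sums of 45152 to 61604 in sham and 40729 to 45481 in EV libraries. Adgre1 made up much of these sums, and without it, a sum chosen after the values were seen, the 8 others gave 23947 to 40509 in sham and 8644 to 12120 in EV libraries, a fall of several fold in the libraries in which Bcl2l11 fell. Csf1r, for example, which encodes the receptor of the macrophage growth factor CSF1, had 10909, 16415 and 15633 normalized counts in sham and 5084, 6148 and 6103 in EV libraries. Among the sham libraries replicate 1 was the lowest for Csf1r and the highest for Bcl2l11, while among the EV libraries replicate 1 was the lowest and replicate 2 the highest for both genes. Orders of 3 libraries per group, for a marker picked after its values were seen, cannot show whether these genes are linked, and no conclusion is drawn from them.

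Of 7 neutrophil markers 4 fell and 1 rose (sums of 15084 to 17443 in sham and 13916 to 17285 in EV libraries), and of 5 basophil and mast cell markers tested 4 rose (3559 to 4598 in sham and 9513 to 11157 in EV libraries). Of 7 T cell markers 2 had enough reads, and 1 of these, Cd28, fell (sums of 336 to 846 in sham and 64.9 to 124 in EV libraries). Cd2 and Tpsb2 had 0 counts in all sham libraries. Bid, Pmaip1 and Bak1 rose in the same libraries as the eosinophil and basophil markers, and Bcl2l11 fell in the same libraries as the macrophage markers, which for cultures of mixed cells cannot be told apart from a change within eosinophils.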

How the data were processed

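RNA of 6 cultures of bone marrow-derived eosinophils, 3 per group, was sequenced after poly(A) selection. Per the labels and methods, the authors checked reads with FastQC, trimmed them with cutadapt and quantified them with Salmon on mm10. Tool versions, annotation and read strand are not given in the sources used here. The authors deposited estimated counts per gene, used here after rounding, and normalized counts, a signal equal to the rounded count plus 1 divided by a size factor for 16250 to 16254 of 16254 genes per library, used in one alternative. Their table of fold changes and p-values was not used.

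Counts were analysed with edgeR 4.0.16 in R 4.3.3 (TMM scaling, filterByExpr with a minimum count of 10, quasi-likelihood test, Benjamini-Hochberg adjustment, no block). DESeq2 1.42.0, limma 3.58.1 on log2(value + 1), other scalings and filters, and leaving out each library gave alternatives. Ratios were tested with an exact permutation test (scipy 1.17.1). The scripts were tested on simulated data. The requirement on calls covered log2 fold changes of at least 1, and was limited to genes with a mean over 100 after low-count genes had been missed. At a simulated log2 fold change of 0.5, edgeR called 23 of 67 changed genes, and 23 of the 49 with a mean over 100. Changes of that size were thus often missed in the simulation. The edgeR p-values weigh a difference against the spread between these cultures, with the spread of other genes used to steady that of each gene. The methods of the paper do not say whether the cultures of a group came from different mice. At this depth counting error is small for the members except Bik. It is larger for other genes with few counts, such as Bcl2a1a in sham, at 24.3 to 66.2 normalized counts.

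The members, lists and ratio pairs were chosen with earlier results of these data known. Named are all members, all pro-survival partners measured and, of each other list except the cell type markers, up to 4 called genes with the smallest adjusted p. Bcl2l10 was not analysed here, and not every gene that this rule names is reported. Genes overlapping a member, Trp53 and the cell type markers were named after their values were seen. Positions, exon lengths and overlaps are from GENCODE vM21 on GRCm38.p6, the build of mm10.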

Additional observations from a re-analysis of the deposited data

How the results depend on the processing

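The calls of Bcl2l11, Bid, Pmaip1 and Bak1 held under 15 alternatives each, with log2 fold changes of -1.01 to -0.83, 0.55 to 0.80, 0.40 to 0.60 and 0.36 to 0.60. With a fold limit of 1 on the log2 scale also required, members called went from 3 higher and 1 lower to 0 and 0, list genes from 25 and 5 to 6 and 1, and all genes to 419 and 857, the fold limit removing them by construction. Without TMM scaling 9 list genes were lower and 1036 of all genes higher. At an adjusted p under 0.05, 10 list genes and 2478 of all genes were lower.

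Leaving out one library in turn gave 3 to 3 members higher and 1 to 1 lower, 20 to 25 list genes higher and 4 to 6 lower, and 1071 to 1833 of all genes higher and 1018 to 1698 lower. The lowest counts were 1071 without EV replicate 3, and 1044 and 1018 lower without EV replicates 2 and 3. Fewer samples were then fitted. Leaving out one library moved the log2 fold change of Bbc3 from -0.11 to 0.0225, of Bad from -0.19 to 0.00136 and of Bcl2a1b from -0.029 to 0.40, so that the sign reversed for Bbc3 without EV replicate 1 (0.0225) or EV replicate 2 (0.0168) and for Bad and Bcl2a1b without sham replicate 1. These 3 genes were not called. Of 25 named genes called, 20 kept their call throughout. Bcl2l13, Atf4, Foxo3 and Xiap also lost theirs without TMM scaling (0.26, 0.14, 0.17 and 0.24), and Bcl2l13 with upper-quartile scaling (0.36). The cause was not tested.

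Same-numbered cultures deviated from their group means with correlations of 0.04 to 0.12. Because these were low, the numbers were not taken to pair the samples, although 5 of 6 libraries correlated best with their own number. With the replicate block, 3 members were higher and 1 lower, and 1794 and 1781 of all genes. The ratios kept their direction with 2 against 3 libraries, where the smallest exact permutation p is 0.2.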
